A study of Mus musculus with 84 samples.

Results

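The data on 10 genes of colonocyte ion and water transport are described: Slc26a3, Slc9a3, Scnn1a, Scnn1b, Scnn1g, Aqp8, Car1, Car2, Car4 and Cftr. They were chosen by symbol from a count table of 25494 genes, and all 10 were present and passed the filter on low counts that kept 15893 genes. Peaks were taken from the window of each gene, its locus with 10 kb on either side. The 10 windows held 1344 of 983032 peaks of H3K27ac, a histone mark of active promoters and enhancers, over 23 libraries. They held 593 of 911771 peaks of H3K4me1, a mark of enhancers whether or not they are active, over 12 libraries, and 94 of 94220 peaks of HNF4a, a nuclear receptor of gut and liver epithelium, over 4 libraries.

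All mice were C57BL/6, and the labels name no engineered allele. HFD and LFD mice were conventional males and females given food with 60% or 10% fat from the age of 6 weeks for up to 20 weeks, and supplied 3 libraries per sex, diet and histone mark, with HNF4a profiled in males alone, 2 libraries per diet. Recipients were germ-free males on either food, also from the age of 6 weeks, that were gavaged for 5 weeks with faecal bacteria of HFD or LFD male donors (HFB or LFB), giving HFDHFB, HFDLFB, LFDHFB and LFDLFB. Each recipient group had 3 RNA-seq libraries and 3 H3K27ac libraries, except HFDHFB with 2 for H3K27ac. RNA came from cells scraped off the colon, whereas chromatin came from epithelium released in EDTA, so that the RNA can hold cells from under the epithelium. Where along the colon the cells were scraped was not given, nor which RNA and chromatin samples shared an animal.

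The epithelium of the colon takes up salt and water. Sodium enters surface cells through the Na+/H+ exchanger NHE3 (Slc9a3) paired with the Cl-/HCO3- exchanger DRA (Slc26a3), and, mostly in the distal colon, through the epithelial sodium channel ENaC, built from alpha, beta and gamma subunits (Scnn1a, Scnn1b, Scnn1g), of which beta and gamma respond to aldosterone in the colon. Carbonic anhydrases hydrate CO2 and thereby supply H+ and HCO3- to the exchangers (Car1 and Car2 in the cytosol, Car4 anchored at the cell surface). Aqp8 encodes a water channel of surface colonocytes, and Cftr the cAMP-gated chloride channel of crypt secretion.

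RNA library totals ran from 39904191 to 48026846 counts, and the 10 genes together took 0.933% to 1.43% of the counts of a library. The label of colon epithelium was met by 8 of 8 epithelial markers, all detected, whose summed level was 9545 to 15656 CPM (counts scaled to a common library total, as edgeR gives them), and 8 of 8 absorptive colonocyte markers, at 19224 to 33517 CPM. All 8 smooth muscle markers were detected too, with a summed level of 1178 to 7577 CPM. One library, LFDHFB 3, stood apart: its median correlation with the other libraries over all genes was 0.941, against 0.963 to 0.977, and the first principal component, which held 42.5% of the variance, had it at one end. Its summed level of 8 distal hindgut Hox genes, transcription factors that mark the lower end of the gut, was 38.9 CPM, against 445 to 1070 CPM in the other 11 libraries. In a bulk sample, fewer cells of one type and less RNA per cell cannot be told apart.

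Per kilobase of transcript, the 10 genes fell into a high and a low set. On the scale of CPM per kilobase of the longest coding transcript, the median level over the 12 libraries was 2282 for Car1, 1984 for Car4, 1002 for Car2, 865 for Slc26a3 and 771 for Aqp8. The low set had medians of 77.5 for Scnn1a, 44.9 for Slc9a3, 25.5 for Scnn1g, 15.6 for Cftr and 14.9 for Scnn1b. The sets did not overlap: the lowest single value in the high set was 152, for Aqp8 in LFDHFB 3, and the highest in the low set was 131, for Slc9a3 in the same library. Within each set the ranges of neighbours in the order overlapped. The annotated Slc9a3 transcript, 2490 bases long, is close to coding sequence alone, which raises its value on this scale.

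Slc26a3, on chromosome 12 (mm9, 32123084 to 32158784, plus strand), had 2465, 1453 and 2171 CPM in the 3 HFDHFB libraries, 1886, 2566 and 3337 in HFDLFB, 3844, 4115 and 973 in LFDHFB, and 3612, 1969 and 3467 in LFDLFB. LFDHFB held both the highest and the lowest value. Slc9a3, its partner in sodium chloride uptake (chromosome 13, 74258963 to 74303512, plus strand), stood at 165, 90 and 168 CPM in HFDHFB, 253, 45.1 and 82.0 in HFDLFB, 95.8, 127 and 327 in LFDHFB, and 96.7, 187 and 81.5 in LFDLFB. The order was turned for this gene, with its highest value in LFDHFB 3, where Slc26a3 was lowest. The levels of these partners did not run together: Pearson's r of log2 CPM was -0.59 over the 12 libraries and -0.35 without LFDHFB 3.

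The ENaC subunits had unequal spreads. Scnn1a (chromosome 6, 125271358 to 125294960, plus strand), the alpha subunit, had 249, 197 and 245 CPM in HFDHFB, 263, 249 and 279 in HFDLFB, 280, 347 and 101 in LFDHFB, and 332, 280 and 379 in LFDLFB. Apart from LFDHFB 3 its levels spanned 1.93-fold. Scnn1b (chromosome 7, 129008552 to 129062242, plus strand), the beta subunit, had 72.0, 17.9 and 23.1 CPM in HFDHFB, 36.5, 37.2 and 78.3 in HFDLFB, 50.5, 54.0 and 6.53 in LFDHFB, and 40.1, 27.8 and 105 in LFDLFB. Scnn1g (chromosome 7, 128877993 to 128911996, plus strand), the gamma subunit and a neighbour of Scnn1b, had 102, 26.6 and 26.1 CPM in HFDHFB, 54.2, 59.6 and 180 in HFDLFB, 106, 101 and 1.28 in LFDHFB, and 92.9, 28.6 and 256 in LFDLFB. Beta and gamma were highest together in LFDLFB 3 and lowest together in LFDHFB 3, where Scnn1g had 59 counts. The other 11 libraries spanned 5.86-fold for Scnn1b and 9.81-fold for Scnn1g.

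The ENaC subunit transcripts therefore stood in different proportions from library to library. Per kilobase, the ratio of Scnn1a to Scnn1g was 1.26 to 8.36 in the 11 libraries and 67.6 in LFDHFB 3. The ratio of Scnn1a to Scnn1b was 2.56 to 8.16 in the 11 and 11.4 in LFDHFB 3. The ratio of Scnn1g to Scnn1b was 0.892 to 2.12 in the 11 libraries and 0.169 in LFDHFB 3. Pearson's r of beta with gamma was 0.97 over all 12 libraries and 0.96 without LFDHFB 3.

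Among the carbonic anhydrases, Car1 went against the other pair in LFDHFB 3. Car1 (chromosome 3, 14766214 to 14808365, minus strand) had 1634, 3202 and 2583 CPM in HFDHFB, 3719, 1172 and 3322 in HFDLFB, 3120, 2803 and 9129 in LFDHFB, and 1926, 2223 and 2161 in LFDLFB. Car2 (chromosome 3, 14886426 to 14900770, plus strand) had 1963, 1699 and 1364 CPM in HFDHFB, 935, 1615 and 2405 in HFDLFB, 2384, 1885 and 697 in LFDHFB, and 2376, 1404 and 2077 in LFDLFB. Car4 (chromosome 11, 84771256 to 84779556, plus strand) had 1742, 1454 and 2453 CPM in HFDHFB, 2421, 2531 and 2537 in HFDLFB, 3355, 3757 and 895 in LFDHFB, and 2812, 2079 and 3461 in LFDLFB. The share of Car1 in the sum of these 3 transcripts per kilobase was 25.4% to 56.3% in the 11 libraries and 87.5% in LFDHFB 3.

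Aqp8 (chromosome 7, 130605808 to 130611517, plus strand) had 921, 873 and 1350 CPM in HFDHFB, 1173, 1030 and 1230 in HFDLFB, 1117, 1866 and 227 in LFDHFB, and 1862, 926 and 1325 in LFDLFB. It spanned 2.14-fold in the 11 libraries and 8.24-fold with LFDHFB 3. Cftr (chromosome 6, 18120687 to 18272769, plus strand) had 130, 88.3 and 95.4 CPM in HFDHFB, 48.1, 93.9 and 120 in HFDLFB, 137, 80.8 and 107 in LFDHFB, and 107, 101 and 73.5 in LFDLFB. It was the one gene of the 10 whose range, 2.85-fold, was the same with and without LFDHFB 3.

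**Figure D1:**
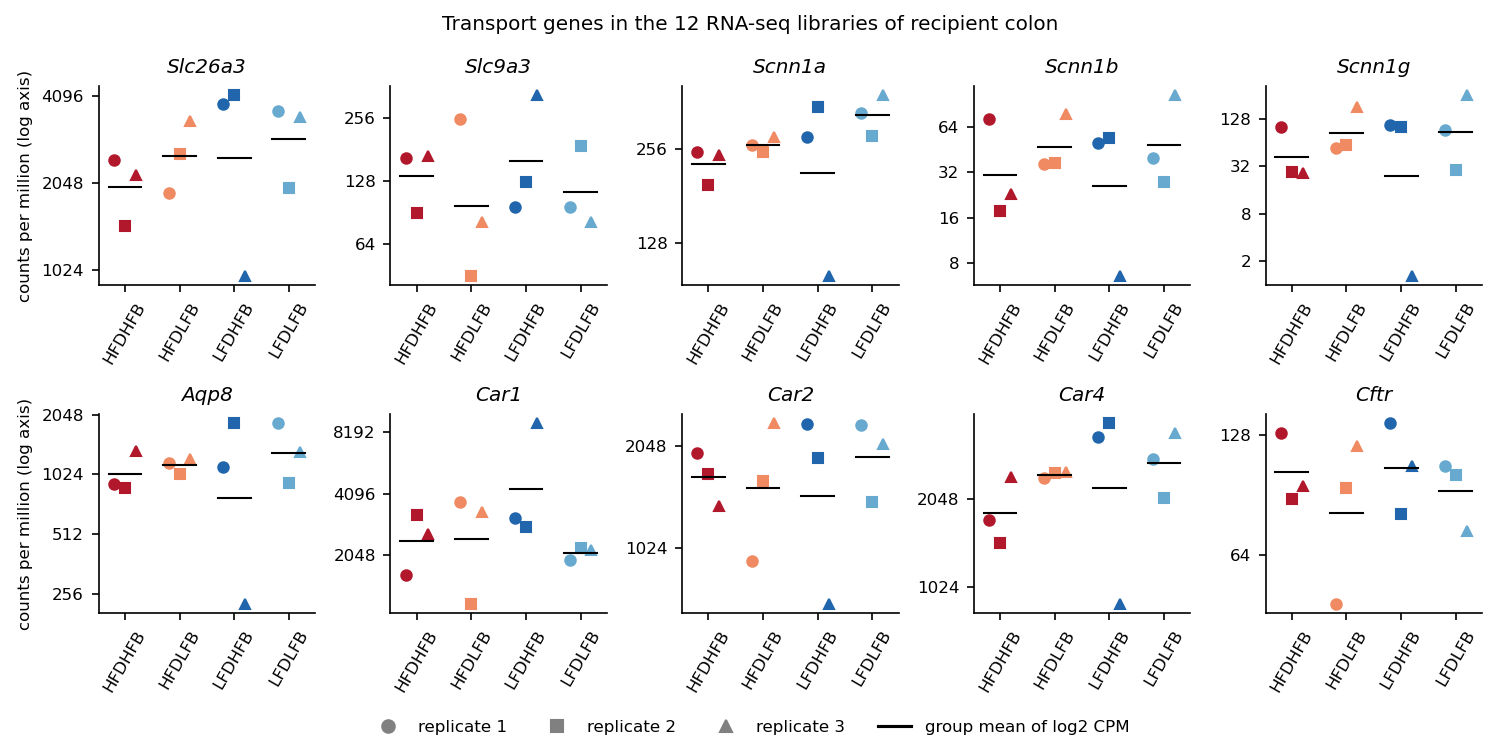
CPM of the 10 genes in the 12 recipient RNA-seq libraries, on log axes, with 1 point per library, a marker shape per replicate number and a line at the group mean of log2 CPM. LFDHFB replicate 3 is the lowest point for Scnn1g (1.28 CPM) and 6 other genes and the highest for Car1 (9129 CPM) and Slc9a3 (327 CPM), while Cftr shows no such point.

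Of the 10 genes, 7 had their lowest level in LFDHFB 3. The median of the other 11 libraries was 72.8-fold its level for Scnn1g, 6.15-fold for Scnn1b, 5.18-fold for Aqp8, 2.83-fold for Car4, 2.77-fold for Scnn1a, 2.70-fold for Car2 and 2.64-fold for Slc26a3. Car1 and Slc9a3 were 3.53-fold and 3.38-fold above that median, and Cftr was 1.12-fold above it. The 8 absorptive colonocyte markers summed to 19224 CPM in that library, against 19358 to 33517 CPM. Beside them stood low levels of the colonic H+/K+-ATPase Atp12a (56.7 CPM against 750 to 3056), of Fxyd4, a colonic regulator of the Na+/K+-ATPase (4.80 against 85.1 to 387), and of Hoxb13 (16.4 against 362 to 827) and Hoxd13 (0.519 against 8.23 to 148). Prkg2, the cGMP-dependent kinase of guanylin signalling, was high at 140 CPM against 3 to 59.4. The epithelial markers of that library summed to 9545 CPM, the lowest of the 12, against 10518 to 15656, its smooth muscle markers to 5777 CPM, inside the range of the others, its enteric neuron and glia markers to 209 CPM, the highest, and its pancreas markers to 55.4 CPM against 253 to 1122. Of the 8 pancreas markers, 2 passed the filter on low counts. The part of cell makeup or of the site along the colon in these levels was not tested. Results that rest on this library are given with and without it.

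The order of the other 11 libraries by distal Hox level also ran with several of the genes. Pearson's r between log2 CPM of the gene and the log2 summed level of the 8 Hox genes was 0.915 for Car2 (permutation p = 4e-05, adjusted p = 0.0008 over 20 relations, Spearman's rho 0.891). It was 0.839 for Scnn1g (permutation p = 0.0017, adjusted p = 0.0095, rho 0.827) and 0.837 for Slc26a3 (permutation p = 0.0019, adjusted p = 0.0095, rho 0.8). Scnn1b followed with r = 0.729 (permutation p = 0.012, adjusted p = 0.035, rho 0.764). Without the 2 libraries farthest from the median Hox level these values were 0.867, 0.901, 0.861 and 0.758. An r at least as high as that of Car2 was found in 0.371% of the 15893 genes, as that of Scnn1g in 2.05%, of Slc26a3 in 2.14% and of Scnn1b in 7.1%. The other 6 relations missed the threshold after adjustment, with r from -0.568 for Slc9a3 to 0.668 for Scnn1a (permutation p = 0.024, adjusted p = 0.053), and Car1 had r = -0.195. By the levels given above, Hoxb13 held a large part of the summed level. With Hoxd13 alone, in the same 11 libraries, r was lower: 0.696 for Car2, 0.714 for Scnn1g, 0.477 for Slc26a3 and 0.651 for Scnn1b, without a test. Smooth muscle markers moved against the Hox level over these libraries (r = -0.78), and against Scnn1g (r = -0.848, permutation p = 0.0011, adjusted p = 0.0095), Scnn1b (r = -0.819, permutation p = 0.0025, adjusted p = 0.0099), Car2 (r = -0.735, permutation p = 0.0098, adjusted p = 0.033) and Slc26a3 (r = -0.714, permutation p = 0.014, adjusted p = 0.036). By rank the last pair missed the threshold, with adjusted p = 0.078 and 0.11 by permutation. An r with the muscle markers at least as low was found in 3.39%, 5.23%, 10.5% and 11.7% of all genes. In these libraries the relation of a gene to the Hox level and its relation to the muscle markers cannot be told apart. All permutation tests were two-sided with 100000 resamples. The libraries were permuted without regard to group, while the median Hox level was 582 CPM in HFDHFB and 1012 CPM in LFDLFB. These p-values therefore do not separate a relation within groups from differences between groups. Within 1 group of 3 libraries no correlation was computed.

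**Figure D2:**
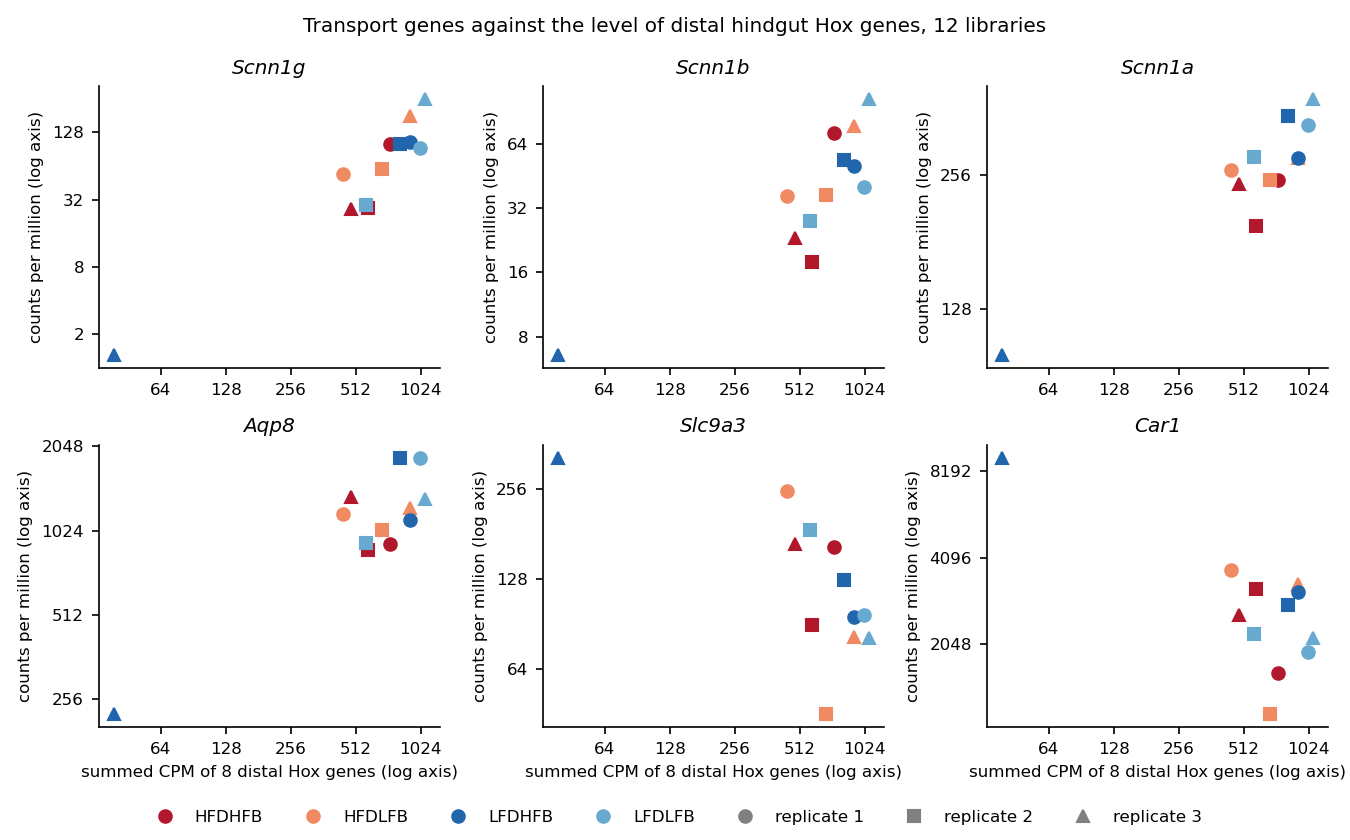
CPM of Scnn1g, Scnn1b, Scnn1a, Aqp8, Slc9a3 and Car1 against the summed CPM of 8 distal Hox genes in the 12 RNA-seq libraries. Both axes are log, with colour for group and shape for replicate number. LFDHFB replicate 3 lies alone at 38.9 CPM of Hox. Among the other 11 libraries (445 to 1070 CPM) Scnn1g (r = 0.839) and Scnn1b (r = 0.729) were higher where Hox was higher. Scnn1a had r = 0.668 and Aqp8 0.426, while Slc9a3 had r = -0.568 and Car1 -0.195.

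Genes whose profile over the 12 libraries was most like that of the 3 members with the widest range of group means were looked up over the 15893 genes. For Scnn1g these were Wnt8b (r = 0.976, or 0.917 without LFDHFB 3), Atp7b (0.973, or 0.945) and Pla2g4f (0.972, or 0.945). For Scnn1b they were Scnn1g itself (0.967, or 0.959), Synj2 (0.958, or 0.908) and Srgap1 (0.949, or 0.888). For Car1 they were Aqp11 (0.961, or 0.906), Slc10a2, the ileal bile acid transporter (0.918, or 0.798), and Fmo5 (0.915, or 0.801). All 12 libraries share each profile, so these values describe likeness in this set of samples.

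The first question put to the recipients was whether the donor's diet, carried over by the bacteria alone, altered expression. On high fat food, none of the 10 genes differed between HFDHFB and HFDLFB by edgeR's quasi-likelihood test (adjusted p from 0.809 to 0.993), where 0 of 15893 genes passed (0%). At an unadjusted p under 0.05, 0 of the 10 and 9.07% of all genes were found. Slc26a3 had a log2 fold change of -0.36 (SE 0.47, 95% confidence interval -1.38 to 0.67), Car4 of -0.41 (SE 0.43, -1.35 to 0.53) and Cftr of 0.26 (SE 0.31, -0.42 to 0.94). Of the 10, 7 had values below 0, and the median of the 10 was -0.17, beside -0.00 over all genes. The CPM of the 2 groups did not overlap for Scnn1a, lower in HFDHFB, where the closest values were equal at 3 digits (249 CPM), and did not overlap for 13% of all genes.

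Of the 57 further transport genes listed, 56 were measured, and 0 of them passed the adjusted threshold. At an unadjusted p under 0.05 were 7 of them (12.5%), 4 higher and 3 lower in HFDHFB. The smallest p belonged to Fxyd3, a modulator of the Na+/K+-ATPase, with a log2 fold change of 0.79 (SE 0.22, unadjusted p = 0.00433, adjusted p = 0.495 by edgeR). Aqp4, a basolateral water channel, had a value of 0.97 (SE 0.29, unadjusted p = 0.00668, adjusted p = 0.495 by edgeR). The median of the 56 was 0.05. Markers of other cell types moved beside these genes: the adipocyte markers summed to 32.7 to 415 CPM in HFDHFB against 339 to 2956 CPM in HFDLFB, with 8 of 8 lower, 6 of them at an unadjusted p under 0.05. The 6 mesothelium markers tested were all lower at that p, and the 7 goblet markers tested all had a log2 fold change above 0, 4 of them at that p. Absorptive colonocyte markers were lower in 7 of 8, none at that p, and leukocyte markers in 8 of 8, 1 at that p. Markers of proliferation (3 at that p), smooth muscle and epithelium were each higher in 8 of 8. None of these markers passed after adjustment, and their part in the transport genes was not tested.

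On low fat food, Car1 alone had an unadjusted p under 0.05 between LFDHFB and LFDLFB, against 3.72% of all genes. Its log2 fold change was 1.25 (SE 0.51, 95% confidence interval 0.14 to 2.37, unadjusted p = 0.0309, adjusted p = 0.975 by edgeR), and its LFDHFB values lay above all LFDLFB values, as the 2 groups were apart for 10.8% of genes. Without LFDHFB 3 the value was 0.49 (unadjusted p = 0.254 by edgeR). None of the 10 passed the adjusted threshold, nor did any gene (0%). The medians were -0.15 for the 10 genes and 0.02 for all genes. Slc26a3 moved from -0.02 to 0.40 when LFDHFB 3 was left out, Slc9a3 from 0.59 to -0.13, and Scnn1g from -0.86 to -0.28. Of the 56 transport genes, 3 (5.36%) had an unadjusted p under 0.05, among them Tsc22d3, a glucocorticoid-induced gene, at -0.56 (unadjusted p = 0.0235, adjusted p = 0.975 by edgeR) and Prkg2 at 2.67 (unadjusted p = 0.0284, adjusted p = 0.975 by edgeR). Prkg2 is the gene whose level was highest in LFDHFB 3.

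Whether the effect of the bacteria depended on the food was tested by the interaction term. None of the 10 genes and none of all genes passed (0%), with 0 of the 10 and 11.3% of all genes at an unadjusted p under 0.05. Car1 had the widest term, -1.40 (SE 0.71, 95% confidence interval -2.96 to 0.16, adjusted p = 0.489 by edgeR), which was -0.64 without LFDHFB 3. Car4 went from -0.35 to -0.76 without that library (unadjusted p = 0.0460, adjusted p = 0.566 by edgeR), beside 1391 genes at an unadjusted p under 0.05. Among the 56 transport genes 9 (16.1%) had an unadjusted p under 0.05, led by Aqp4 at 1.30 (unadjusted p = 0.00868, adjusted p = 0.386 by edgeR) and Fxyd3 at 0.97 (unadjusted p = 0.0102, adjusted p = 0.386 by edgeR).

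The second question was the effect of the recipient's own food. With HFD donors, none of the 10 genes passed between HFDHFB and LFDHFB (0% of all genes), and 0 had an unadjusted p under 0.05, against 7.46% of all genes. Slc26a3 was lower on high fat food by a log2 fold change of -0.55 (SE 0.47, 95% confidence interval -1.58 to 0.47), Car4 by -0.50 (SE 0.43, -1.44 to 0.44) and Car1 by -1.02 (SE 0.50, -2.13 to 0.09). Without LFDHFB 3 Car4 was at -0.92 (unadjusted p = 0.00377, adjusted p = 0.471 by edgeR), Slc26a3 at -0.97 (unadjusted p = 0.0112, adjusted p = 0.496 by edgeR) and Scnn1a at -0.44 (unadjusted p = 0.0204, adjusted p = 0.545 by edgeR). Over all genes 1409 had an unadjusted p under 0.05 in that fit, against 1186 with all 12 libraries. Car1 was then at -0.26, and Slc9a3 turned from -0.38 to 0.34. With the distal Hox level as a covariate in place of leaving the library out, Slc26a3 was at -0.75 (unadjusted p = 0.00503, adjusted p = 0.290 by edgeR) and Car4 at -0.63 (unadjusted p = 0.0203, adjusted p = 0.372 by edgeR). Scnn1a was then at -0.23 (unadjusted p = 0.148 by edgeR), and 1867 of all genes had an unadjusted p under 0.05. The 2 groups overlapped in all 10 genes, and were apart for 11% of all genes. Without LFDHFB 3 all HFDHFB values lay below all LFDHFB values for Slc26a3, Car4 and Scnn1a, and the others still overlapped. The closest values were 2465 and 3844 CPM for Slc26a3, 2453 and 3355 for Car4, and 249 and 280 for Scnn1a. With fewer libraries groups lie apart more readily, and no share of all genes was computed for that setting.

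With LFD donors, HFDLFB and LFDLFB likewise differed in none of the 10 genes (0% of all genes) and 0 had an unadjusted p under 0.05, against 5.33% of all genes. The log2 fold changes ran from -0.36 for Scnn1g to 0.38 for Car1, and 8 of the 10 were below 0. Scnn1a was lower in each HFDLFB library than in each LFDLFB library (279 against 280 CPM for the closest pair), with a log2 fold change of -0.32 (SE 0.34), and the 2 groups were apart for 11.7% of all genes. Among the transport genes, 4 (7.14%) had an unadjusted p under 0.05 with HFD donors and 6 (10.7%) with LFD donors. The smallest values were those of Fxyd3 at 0.69 (unadjusted p = 0.0100, adjusted p = 0.460 by edgeR) and the mineralocorticoid receptor Nr3c2 at -0.52 (unadjusted p = 0.0141, adjusted p = 0.505 by edgeR) with HFD donors. With LFD donors they were those of Prss8, a protease that activates ENaC, at -0.52 (unadjusted p = 0.0166, adjusted p = 0.881 by edgeR) and Car3, a carbonic anhydrase abundant in fat and muscle, at 3.73 (unadjusted p = 0.0209, adjusted p = 0.881 by edgeR). The adipocyte markers moved with Car3: they summed to 339 to 2956 CPM in HFDLFB against 90.9 to 217 CPM in LFDLFB, with 8 of 8 higher, 7 of them at an unadjusted p under 0.05. Their part in the Car3 value was not tested.

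The intervals say how much each comparison could have missed. For Cftr the 95% interval of HFDHFB against HFDLFB ran from 0.748-fold to 1.91-fold, for Slc26a3 from 0.384-fold to 1.59-fold, and for Scnn1g from 0.0899-fold to 3.07-fold. Comparisons that share a group of libraries are not independent of each other.

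**Figure D3:**
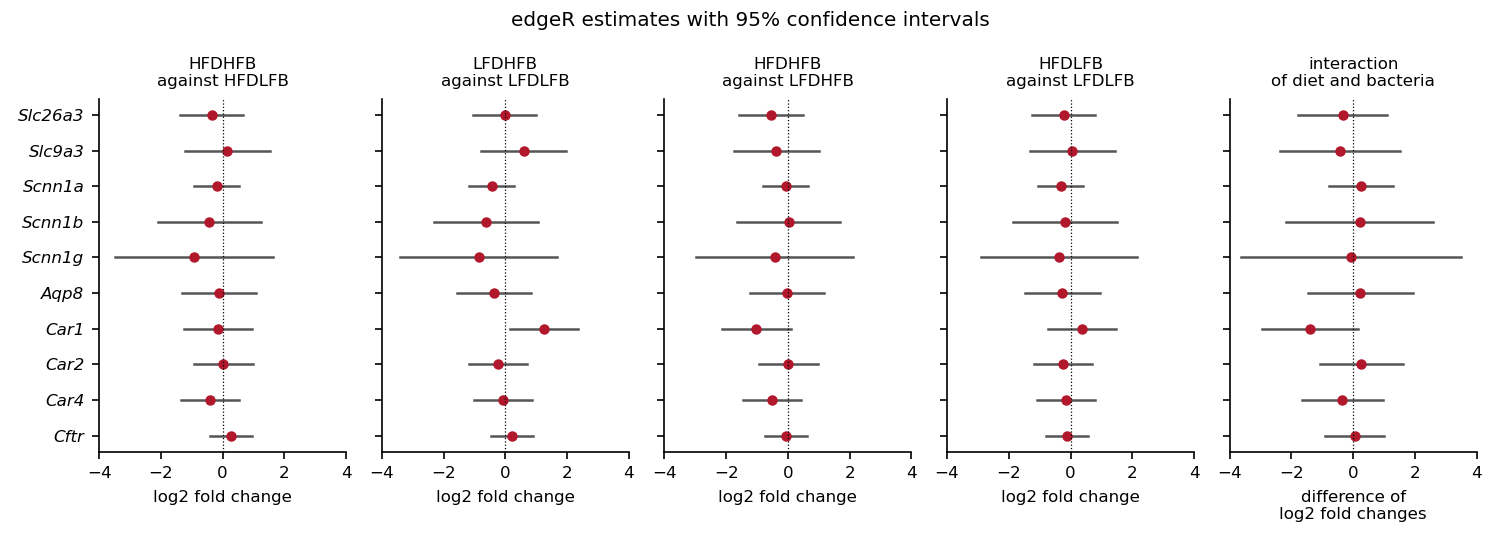
Log2 fold changes of the 10 genes in the 5 comparisons of the recipient RNA-seq libraries (x axis, from -4 to 4) with 95% confidence intervals from edgeR, all 12 libraries in 1 fit. Except for Car1 in LFDHFB against LFDLFB (0.14 to 2.37), each interval includes 0, and those of Scnn1g are the widest.

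The loci differed in how much of them lay under H3K27ac peaks. In the 12 HFD and LFD libraries, H3K27ac covered 15.7 to 24.3 kb of the 28.3 kb Car4 window, 26.9 to 33.1 kb of 55.7 kb at Slc26a3, 13.2 to 22 kb of 34.34 kb at Car2, 15.8 to 23.6 kb of 43.6 kb at Scnn1a and 6.19 to 11.4 kb of 25.71 kb at Aqp8. Coverage was 44.2 to 64.4 kb of the 172.1 kb Cftr window. It was thinner at Slc9a3 (5.6 to 16.2 kb of 64.55 kb), Car1 (4.4 to 19.2 kb of 62.15 kb) and Scnn1b (2.8 to 9.2 kb of 73.69 kb). At Scnn1g it was 0 to 2.8 kb of 54 kb, with no peak at all in 4 of the 12 libraries. The windows of Slc9a3, Scnn1a and Scnn1b also reach other genes, Exoc3, Ltbr with Tnfrsf1a, and Cog7, whose peaks count in these lengths.

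The start of the gene in the deposited locus lay under an H3K27ac peak in 12 of 12 libraries for 7 of the 10 genes. The exceptions were Scnn1b in 2 libraries, Scnn1g in 0 and Car1 in 3. H3K4me1 covered the start of Scnn1b and Scnn1g in 12 of 12 libraries. For Car1 the start of the deposited locus lies upstream of the start in the GENCODE annotation, where H3K4me1 was found in 12 of 12 and H3K27ac in 4 of 12. That gene had the highest median RNA level of the 10 per kilobase in recipients. The reverse held at Car2 and Cftr, whose starts were under H3K27ac in 12 libraries and under H3K4me1 in 2 and 5. In the 11 recipient libraries the picture was alike, with the start of Scnn1g under H3K27ac in 1, that of Scnn1b in 5 and that of Car1 in 2, and no H3K27ac peak in the Scnn1g window in 7. For Slc26a3 the GENCODE gene starts upstream of the deposited start, at 32075736 on chromosome 12 (mm9), where H3K27ac was found in 1 of 12 libraries and H3K4me1 in 0 of 12.

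The diet of conventional mice was then compared by the covered length, called different where in both sexes all libraries of one diet lay above all of the other in the same direction. For H3K27ac 0 of the 10 windows were called, beside 0.335% of 17317 gene windows. Scnn1b had more covered length on HFD, 5.8, 9.0 and 7.8 kb in females against 2.8, 3.6 and 3.6 kb on LFD, and 3.8, 7.6 and 9.2 kb in males against 4.8, 6.2 and 4.8 kb. The diets were apart in females and overlapped in males, and the mean difference was 2.9 kb (exact permutation test within sex, two-sided p = 0.03, adjusted p = 1). Scnn1g had 2.4, 2.8 and 2 kb in HFD males against 0, 0.8 and 1.4 kb in LFD males, and 0.6, 1 and 0 kb against 0, 0 and 0.8 kb in females (0.967 kb, exact permutation p = 0.04, adjusted p = 1). Over all windows 65.7% were longer on HFD and 4.15% had an exact permutation p under 0.05. Relative to the total covered length of the library 44.7% of windows were higher on HFD, and the exact permutation p was 0.03 for Scnn1b, 0.04 for Scnn1g and 0.02 for Slc26a3, which was lower on HFD by that measure (-0.0239 kb per Mb), a share of 5.04% of all windows being under 0.05. The smallest p that this design allows is 0.005. For H3K4me1 0 windows were called, beside 0.295% of 19991, and 0 of the 10 had an exact permutation p under 0.05, beside 3.42% of all windows, with differences from -1.92 kb at Car2 to 0.567 kb at Scnn1g.

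At Cftr the diets were apart in each sex but in opposite directions. HFD females had 60.2, 53 and 55 kb under H3K27ac against 44.4, 45 and 44.2 kb in LFD females, 11.5 kb more on HFD. HFD males had 48.8, 59.2 and 57.6 kb against 63, 64.4 and 62.4 kb in LFD males, a difference of -8.07 kb. The difference between the sexes was 19.6 kb (exact permutation p = 0.005, the smallest possible, adjusted p = 1 over all windows), and 0.358% of the 17317 windows showed groups apart in opposite directions. Slc26a3 had 26.9, 29.3 and 30.1 kb in HFD males against 33.1, 31.3 and 32.9 kb in LFD males, while the diets overlapped in females, and its difference between the sexes was 5.33 kb (exact permutation p = 0.015, adjusted p = 1). The total covered length of the H3K27ac libraries was 108.9 to 120.6 Mb in HFD females and 100.2 to 104.2 Mb in LFD females, without overlap and in the direction of the female Cftr and Scnn1b values. In males it was 103.7 to 127.4 Mb on HFD and 110.8 to 125.5 Mb on LFD. Read depth is not held in these peak lists, and its part was not tested. Divided by the total covered length of the library, a scale chosen after seeing the data, the Cftr window had 0.523, 0.44 and 0.505 kb per Mb in HFD females against 0.426, 0.449 and 0.424 in LFD females, which overlapped, and 0.471, 0.492 and 0.452 in HFD males against 0.502, 0.566 and 0.563 in LFD males, which did not. On that scale the difference between the sexes was 0.128 kb per Mb (exact permutation p = 0.01).

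In the recipients, the source of the bacteria went with H3K27ac in the Scnn1b window, which also reaches Cog7. On high fat food HFB recipients had 6.6 and 7.4 kb covered against 4, 5 and 4.8 kb in LFB recipients. On low fat food they had 4.6, 4.8 and 4.4 kb against 4, 3.8 and 3 kb. HFB lay above LFB on both foods, by 1.7 kb on average (exact permutation test within food, two-sided p = 0.005, the smallest possible, adjusted p = 1), and 1 of the 10 windows was called so, beside 0.538% of 17841. The call ended with the locus alone, with 50 kb on either side and with the number of peaks in place of their length. Slc26a3 had 26.7 and 32.9 kb in HFDHFB against 26.9, 24.9 and 26.7 kb in HFDLFB, and 28.7, 31.1 and 30.5 kb in LFDHFB against 29.9, 26.3 and 22.9 kb in LFDLFB (3.68 kb, exact permutation p = 0.045, adjusted p = 1). Cftr had 43.6 and 56.4 kb in HFDHFB against 61.4, 62 and 54.4 kb in HFDLFB, and 35.6, 31.6 and 39 kb in LFDHFB against 55.4, 49.2 and 39 kb in LFDLFB (-10.9 kb, exact permutation p = 0.03, adjusted p = 1). Of all windows 3.31% had an exact permutation p under 0.05 for the source of the bacteria. The total covered length was 106.7 to 132.2 Mb in HFDHFB, 114.8 to 123.1 Mb in HFDLFB, 98.79 to 104.6 Mb in LFDHFB and 93.07 to 117.2 Mb in LFDLFB.

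The recipient's own food went with longer H3K27ac coverage in most windows of the genome, 80.2% of which were higher on HFD. None of the 10 windows was called, beside 3.7% of 17841. Cftr was 13 kb longer on HFD (exact permutation p = 0.01, adjusted p = 0.208), Scnn1b 1.7 kb (exact permutation p = 0.01, adjusted p = 0.208), Car1 4.43 kb (exact permutation p = 0.015, adjusted p = 0.222) and Car2 3.99 kb (exact permutation p = 0.015, adjusted p = 0.222). An exact permutation p under 0.05 was found in 15% of all windows. Divided by the total covered length of the library, 49.4% of windows were higher on HFD, and 10% had an exact permutation p under 0.05. On that scale the exact permutation p was 0.015 for Scnn1b, 0.025 for Cftr, 0.04 for Car1 and 0.05 for Car2, none of them called. Slc26a3 was called there, lower on HFD with both donors (-0.0375 kb per Mb, exact permutation p = 0.01), beside 3.06% of all windows.

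**Figure D4:**
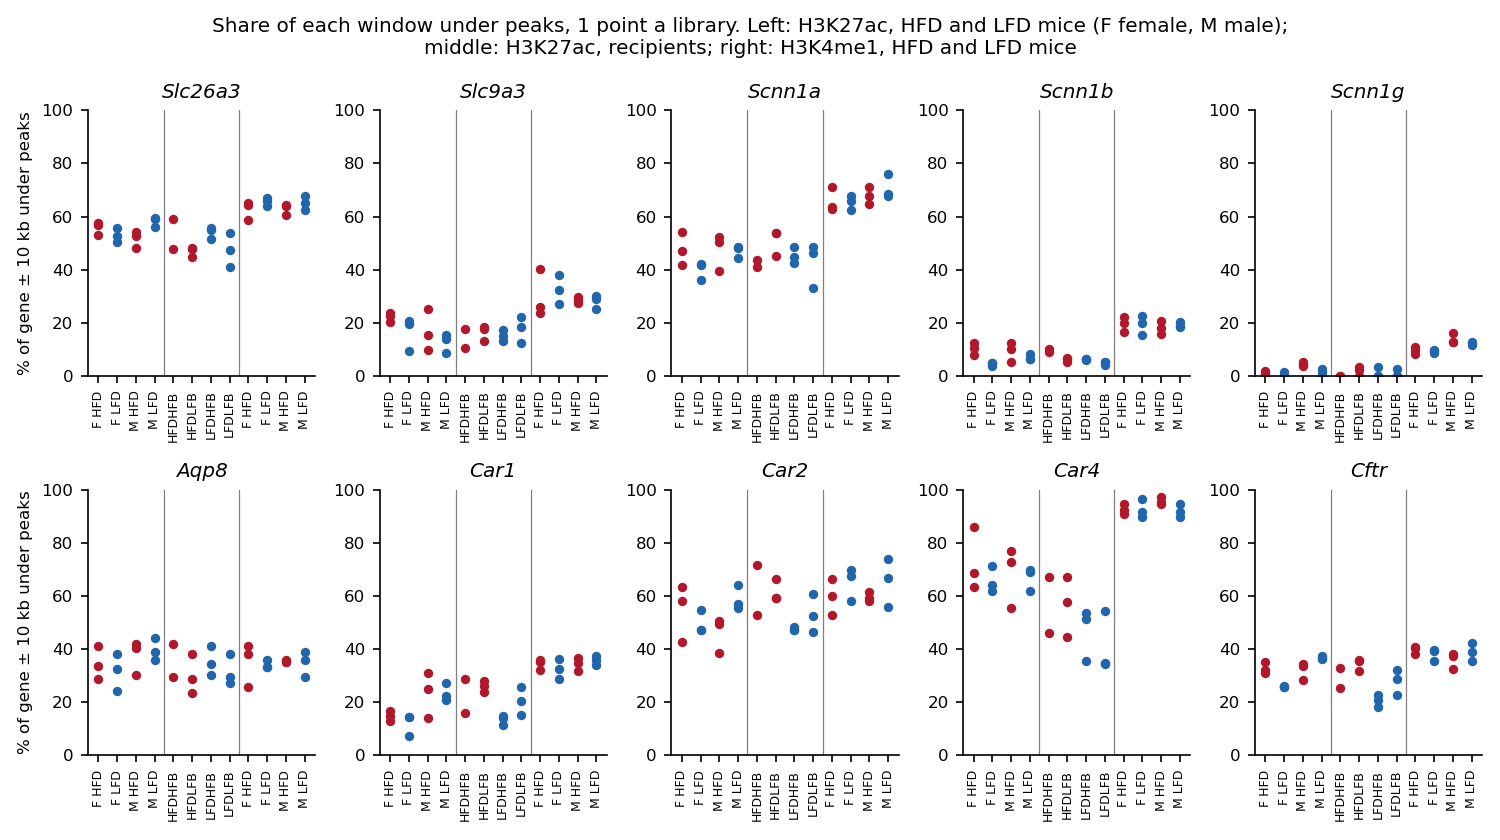
Percent of each gene window (locus with 10 kb on either side) under peaks, 1 point per library, for H3K27ac in HFD and LFD mice (left, F female and M male), H3K27ac in recipients (middle) and H3K4me1 in HFD and LFD mice (right). Scnn1g stays close to 0 for H3K27ac, Car4 lies above 89% for H3K4me1, and the female and male diets of Cftr are apart in opposite directions for H3K27ac, in this length before any scaling by library.

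HNF4a sites with a peak in all 4 libraries lay near some of the genes, while others had only sites found in fewer libraries. Peaks of the 4 male libraries were merged into 42 sites over the 10 windows, of which 11 (26.2%) had a peak in all 4 libraries, beside 17.2% of 49525 sites in the genome. A site in all 4 libraries was present in 5 of the 10 windows, beside 20.8% of 25334 gene windows, and any site in 10 of 10, beside 63%. Slc26a3 had 4 of its 5 sites in all 4 libraries, Aqp8 2 of 4, Car4 2 of 4, Car1 2 of 6 and Slc9a3 1 of 4. Scnn1a (5 sites), Car2 (5), Cftr (7), Scnn1b (1) and Scnn1g (1) had 0. One site, in an intron of Cftr 45.6 kb from its start, was present in both HFD libraries alone, and 0 in both LFD libraries alone, beside 1.88% and 3.16% of all sites. With 2 libraries per diet no test of the diets was made, and 17 of the 42 sites rested on 1 library.

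The sites in all 4 libraries closest to the start of their gene are shown for 4 of the 5 genes with such a site. They are given as the central 200 bases in mm9, with any match to the HNF4a motif in capitals. The motif searched was CAAAGGCCA, CAAAGGTCA, CAAAGTCCA or CAAAGTTCA on either strand. The Slc26a3 site lies 0.151 kb before the deposited start, in an intron of a longer GENCODE transcript, and the others lie between genes, 9.2 kb (Slc9a3), 2.67 kb (Aqp8) and 2.28 kb (Car4) before the start.
Slc26a3, chr12:32122833-32123032, plus strand: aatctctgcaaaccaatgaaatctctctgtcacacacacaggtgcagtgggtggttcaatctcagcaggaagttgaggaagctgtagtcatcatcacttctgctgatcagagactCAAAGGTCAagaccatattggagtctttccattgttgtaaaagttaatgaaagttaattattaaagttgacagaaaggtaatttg
Slc9a3, chr13:74249668-74249867, plus strand: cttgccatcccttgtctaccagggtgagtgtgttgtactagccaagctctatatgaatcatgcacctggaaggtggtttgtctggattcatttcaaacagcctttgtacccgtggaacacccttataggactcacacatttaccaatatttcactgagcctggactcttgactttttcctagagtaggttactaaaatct
Aqp8, chr7:130603034-130603233, plus strand: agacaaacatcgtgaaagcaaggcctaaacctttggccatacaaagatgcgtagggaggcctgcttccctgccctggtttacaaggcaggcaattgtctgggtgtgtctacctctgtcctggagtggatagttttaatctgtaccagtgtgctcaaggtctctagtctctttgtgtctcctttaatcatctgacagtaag
Car4, chr11:84768874-84769073, plus strand: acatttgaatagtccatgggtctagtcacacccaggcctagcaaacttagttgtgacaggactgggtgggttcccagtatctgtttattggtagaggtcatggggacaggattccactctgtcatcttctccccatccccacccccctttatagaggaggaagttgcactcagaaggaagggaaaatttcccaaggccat
The Slc26a3 site held CAAAGGTCA from position 116 of the printed stretch, and the other 3 stretches held no match. The closest such site of Car1, 3.43 kb into the deposited locus and not printed, held no match either. Of the 42 sites at the 10 genes 6 (14.3%) held one, beside 12.2% of all sites, 26% of the sites in all 4 libraries and 1.16% of stretches of the same length 5 kb further on. The second site of Aqp8 in all 4 libraries, in an intron 3.97 kb from the start, held 3 matches.

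The HNF4a sites lay largely in chromatin marked by H3K27ac in male mice. Of the 11 sites in all 4 libraries 9 (81.8%) were under an H3K27ac peak in all 6 male libraries, beside 76.4% of 8494 such sites in the genome. The exceptions were the intron site of Aqp8, in 5 of 6, and the Car1 site 27.8 kb into the deposited locus, in 3 of 6. Of the 31 sites with a peak in fewer libraries 19 (61.3%) were covered in all 6, beside 40.5% of 41031. Those covered in 0 of 6 were the single sites of Scnn1b and Scnn1g and 1 intron site of Cftr. The Scnn1g site, 0.203 kb before its start, was found in 1 HNF4a library and under H3K4me1 in 3 of 6 male libraries. By position, 22 of the 42 sites lay between genes, 16 in introns and 4 in exons, and of the 11 in all 4 libraries 6 lay between genes and 5 in introns, by the GENCODE annotation of mm9.

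**Figure D5:**
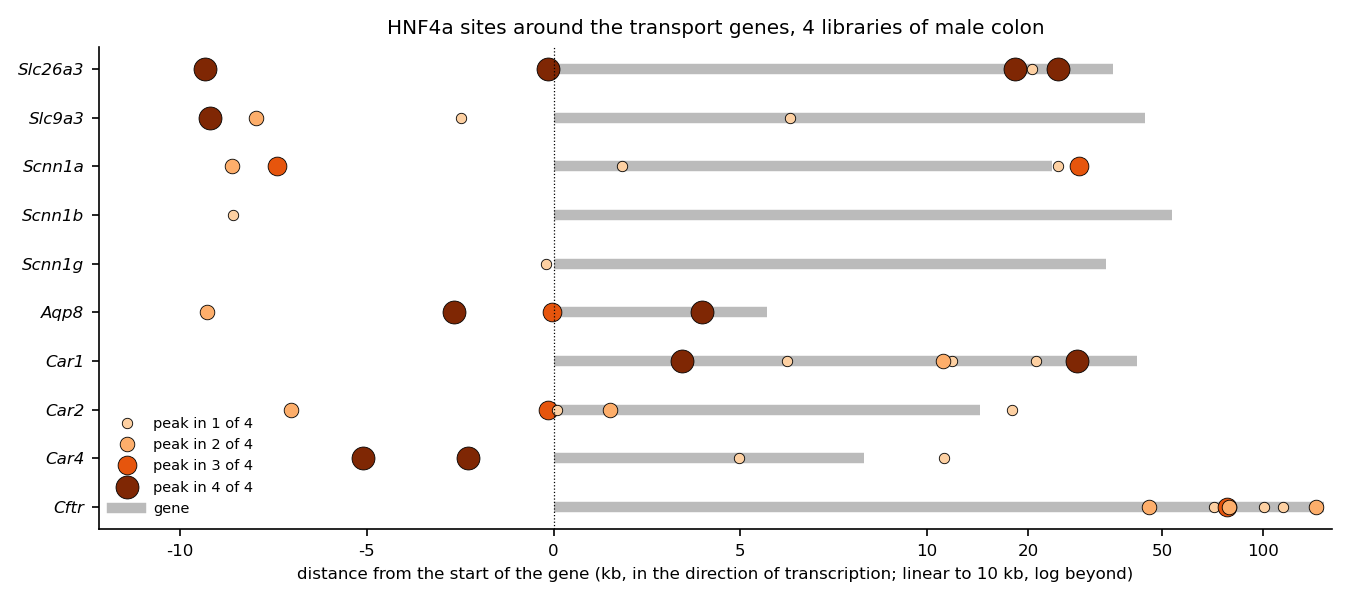
HNF4a sites around the 10 genes by distance in kb from the deposited start, in the direction of transcription (linear to 10 kb, log beyond), with point size and colour for the number of the 4 libraries with a peak and a grey bar for the gene. Sites in all 4 libraries appear at Slc26a3 (4), Aqp8, Car1 and Car4 (2 each) and Slc9a3 (1), and none appears at the 3 ENaC genes, Car2 or Cftr.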

How the data were processed

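The authors deposited raw read counts per gene for 12 RNA-seq libraries, aligned to mm9 with STAR 2.5 and counted with featureCounts 1.5.0-p1; whether counting used strand is not given in the sources used here. They deposited peak coordinates of 39 ChIP-seq libraries (Bowtie 0.12.8 and Picard 1.110 per the labels, SICER for histone marks, HOMER for HNF4a), called per library, with no height and no depth, so that the counting error of a covered length could not be estimated. The 33 input samples were not used here. Groups followed the labels. That replicates came from separate animals is not stated for each sample, and p-values may then measure technical spread.

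Counts were fitted with edgeR 4.0.16 (R 4.3.3) after filterByExpr and TMM scaling, by quasi-likelihood F-tests on the 4 groups in 1 model. P-values were adjusted by Benjamini-Hochberg over all 15893 genes, with a threshold of 0.05 and a prior count of 2 for log2 CPM. Levels per kilobase used the longest protein-coding GENCODE vM1 transcript. Covered base pairs per window were set against each other in exact permutation tests (two-sided) within sex (400 labellings) or within food or donor (200), adjusted over all windows with a peak. HNF4a peaks sharing 1 bp or more were joined into sites. Peaks were handled in Python 3.11.15 with scipy 1.17.1, figures were drawn with matplotlib 3.10.9, and DESeq2 1.42.0 served as an alternative. The tests were checked on simulated data. Same-numbered replicates did not deviate together (18 pairs, r from -0.59 to 0.45, 6 over 0.1), so the numbers were not taken as pairs.

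All 10 genes were tested in each comparison of RNA and of covered length, but the text names only some of them, chosen with their values known. Of the other transport genes, those past the threshold, or else the 2 of smallest p, were named, as were the 3 genes most like each of the 3 members with the widest range of group means, and further genes named beside LFDHFB 3 were chosen after their values were seen. The genes and all lists were chosen with earlier results of these data known. Sequences were read from mm9 at the deposited coordinates.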

Additional observations from a re-analysis of the deposited data

Results flagged for a closer look

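The diet difference in H3K27ac covered length at Cftr ran in opposite directions in the sexes, 11.5 kb more on HFD in females and a difference of -8.07 kb in males. The difference between them was 19.6 kb (exact permutation p = 0.005, the smallest that the 400 labellings allow, adjusted p = 1 over 17317 windows), and the libraries of the 2 diets did not overlap in either sex, which was so in opposite directions for 0.358% of windows. The start of Cftr lay under a peak in 12 of 12 libraries, and the H3K4me1 covered length of the window had a difference between the sexes of 7.6 kb (exact permutation p = 0.185). The total covered length of the library was higher in all HFD females than in all LFD females. Relative to it, the Cftr values of the 2 diets overlapped in females and not in males, and the difference between the sexes was 0.128 kb per Mb (exact permutation p = 0.01), a scale chosen after seeing the data.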

How the results depend on the processing

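No transport gene, member or other, was called in any of 70 combinations of comparison and setting: the fit as reported, DESeq2's Wald test, DESeq2 size factors, no filter on low counts, the replicate block, a fit on 2 groups alone, each library left out, and the distal Hox covariate added after seeing the data. The smallest adjusted p of a member was 0.290. Over all genes DESeq2 called 80, 0, 73, 126 and 9 genes in HFDHFB against HFDLFB, LFDHFB against LFDLFB, the interaction, HFDHFB against LFDHFB and HFDLFB against LFDLFB, where edgeR called 0. With the replicate block, whose numbers do not pair the samples, 0 members were called and the genes at an unadjusted p under 0.05 numbered 1081, 327, 1288, 850 and 602 in that order, against 1441, 592, 1794, 1186 and 847. Of 650 alternative log2 fold changes of members, 111 changed sign (98 of them) or moved by at least their SE, none of them called.

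For H3K27ac, leaving out 1 replicate number gave 0 to 3 windows called for HFD against LFD (Slc9a3, Scnn1b and Car1 without replicate 1, Scnn1g without replicate 3), 2 for HFB against LFB (Scnn1b in each case) and 0 to 5 for HFD against LFD recipients (Scnn1b, Car1, Car2, Car4 and Cftr without replicate 1). With fewer libraries a group, groups lie apart more readily, and no share over all windows was computed for these settings. For HFB against LFB, 0 windows were called with the locus alone, with 50 kb on either side or by the number of peaks. Relative to the total covered length of the library, a setting added after seeing the data, 3 were called (Slc26a3 and Scnn1b higher, Cftr lower). Over all windows that share was 0.936%. For the food of recipients, 1 was called with the locus alone (Scnn1b higher) and 1 relative to the total (Slc26a3 lower), the latter beside 3.06% of all windows. On that scale the Cftr groups of HFD and LFD mice were no longer apart in both sexes. HNF4a sites in all 4 libraries numbered 5 with the locus alone and 30 with 50 kb on either side, against 11. No share over all windows or sites was computed for these other window sizes or for peak numbers. The causes of these shifts were not tested. With 3 libraries a group, and 2 for HFDHFB chromatin, fold changes of the spread genes Scnn1b and Scnn1g could not be narrowed, and peak lists without depth limit each covered length.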

Other observations

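One chromatin library stood apart at a distal Hox gene. LFD female replicate 1 had 0 kb of H3K27ac in the window of Hoxd13, against 11.8 to 17.7 kb in the other 11 HFD and LFD libraries. At Hoxb13 it was close to them, with 18.6 kb against 19.7 to 21.9 kb. It also had the least H3K27ac of the 12 at Scnn1a (15.8 kb), Scnn1b (2.8 kb), Aqp8 (6.19 kb) and Car1 (4.4 kb). Without it, the LFD females had 3.6 and 3.6 kb at Scnn1b and 45 and 44.2 kb at Cftr, below all 3 HFD females at both. Among the recipients, the H3K27ac library LFDHFB replicate 3 had 20.8 kb covered at Hoxb13 and 16.1 kb at Hoxd13, and whether it shares an animal with the RNA library of that name is not given.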
